A study of Homo sapiens with 28 samples.

Results

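The regions described here are the distal TWIST1 peaks that the CRC cell lines MDST8 and LoVo shared. They were chosen from the peak lists of 2 TWIST1 ChIP-seq libraries, 1 per line, made from wild-type cells. A MDST8 peak on chromosomes 1 to 22 or X was taken when a LoVo peak covered it by at least 50% of the length of both peaks and when its summit lay over 3000 bp from the 5′ end of every gene in the count tables. This gave 13332 shared distal peaks of 338877 MDST8 peaks listed, or 4.57% (95% exact Clopper-Pearson interval 4.50 to 4.65) of the 291441 distal MDST8 peaks. The LoVo list held 333621 peaks, and each shared distal peak had its own LoVo partner. Overlap, distance to 5′ ends and presence in both lists were therefore fixed by the choice, and they are described below without a test. Intervals in this text cover counting error only, and with 1 ChIP library per line no peak has a replicate.

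MDST8 is a human CRC line of the mesenchymal CMS4 subtype and LoVo is a CRC line outside that subtype. Expression near the peaks was read from 24 RNA-seq libraries grown in DMEM with 10% FBS, 3 per group. The MDST8 groups were WT and 5 groups labelled TWIST1 knockout, TG1_1, TG2_2, TG3_2, TG3_5 and TG3_6. The study derived its knockout colonies from single cells after CRISPR-Cas9 electroporation. In the sample titles TG3_2, TG3_5 and TG3_6 share the clone name TG3, while TG1_1 is titled TG1 and TG2_2 is titled TG2. The 5 groups are called clones below, but the titles do not say whether those named TG3 arose from separate cells. The LoVo groups were labelled shRNA control and TWIST1 shRNA, after lentiviral delivery. Library totals ran from 16567606 to 22217009 counts. TWIST1 mRNA was 41.3 to 53.3 reads-per-million (RPM) in MDST8 WT and 28.4 to 57.0 RPM in the clone libraries, and it was called lower in TG2_2 alone (log2 fold change -0.65 ± 0.07, not called without WT replicate B). TWIST1 had 0 counts in each of the 3 LoVo libraries labelled shRNA control, which allows up to 0.144 to 0.177 RPM (3 counts per library), and 73, 89 and 93 counts in those labelled TWIST1 shRNA, the opposite of the labels. LoVo directions below are given for the libraries as labelled. Of 9 epithelial or colon markers, 2 reached 1 RPM in MDST8 (KRT8 and KRT18) and 9 in LoVo, while of 5 mesenchymal markers all did so in MDST8 and 4 in LoVo. Of the epithelial or colon markers, EPCAM, CDH1, CDX2 and VIL1 were at or near 0 in MDST8.

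TWIST1 is a basic helix-loop-helix (bHLH) transcription factor that pairs with E proteins such as TCF3, TCF4 and TCF12 and is held back by ID proteins. Such pairs bind E-boxes, the 6-base motif CANNTG, and TWIST1 is known for its part in mesoderm development and in epithelial-mesenchymal transition (EMT). Binding far from 5′ ends is usually sought at enhancers, which lie in introns or between genes and can act on genes that are not their nearest. Sequence that recurs in the genome, such as centromeric satellites, ribosomal DNA (rDNA) arrays and subtelomeric macrosatellites, is a known difficulty of ChIP-seq, because a read from one copy can be placed at another.

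The sequences below are those of the strongest shared peaks, ranked by the -log10 p of the line in which the peak was weaker, and each is the MDST8 summit with 50 bp to either side, read 5′ to 3′ on the plus strand of hg38 with E-boxes in capitals. The first 5 are shown because they stand for the repeat classes at the top of the ranking. They are the first-ranked peak on chromosome 1, the second-ranked peak, on chromosome 17, the peaks at DUX4 and DUX4L20, which share a run of at least 200 identical bases (it reaches the edge of the 301 bp compared), and the highest-ranked peak in an intron with a sequence found once.
chr1:143214690-143214790, rank 1, nearest to ENSG00000276118: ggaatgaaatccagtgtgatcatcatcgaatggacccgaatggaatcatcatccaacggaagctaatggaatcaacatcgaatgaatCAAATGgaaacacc
chr17:26884074-26884174, rank 2, nearest to ENSG00000263433: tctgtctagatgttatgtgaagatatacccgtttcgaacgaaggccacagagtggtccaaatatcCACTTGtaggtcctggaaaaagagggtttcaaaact
chr4:190178335-190178435, rank 4, DUX4: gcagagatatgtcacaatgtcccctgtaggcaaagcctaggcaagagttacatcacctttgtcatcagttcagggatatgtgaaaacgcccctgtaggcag
chr10:133688324-133688424, rank 6, DUX4L20: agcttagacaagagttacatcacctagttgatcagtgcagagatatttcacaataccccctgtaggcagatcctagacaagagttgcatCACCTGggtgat
chr19:7450934-7451034, rank 15, intron of ARHGEF18: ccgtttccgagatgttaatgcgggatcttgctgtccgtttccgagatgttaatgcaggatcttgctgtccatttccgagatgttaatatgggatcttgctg
The next 3 are shown because they are among the 8 highest-ranked peaks with CATCTG, the E-box variant the study examined at SPON2, on either strand (read as CAGATG on the other) or with a pair of E-boxes 5 bases apart.
chr1:2654018-2654118, rank 60, intron of TTC34: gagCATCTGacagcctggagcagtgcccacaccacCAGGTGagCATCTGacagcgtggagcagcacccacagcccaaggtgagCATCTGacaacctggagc
chr11:31780162-31780262, rank 75, intron of ELP4: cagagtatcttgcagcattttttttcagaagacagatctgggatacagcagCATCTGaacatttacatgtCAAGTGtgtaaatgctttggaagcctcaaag
chr9:68291939-68292039, rank 100, intron of ZNG1C: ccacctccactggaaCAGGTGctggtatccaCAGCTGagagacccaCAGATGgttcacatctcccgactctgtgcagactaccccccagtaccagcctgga

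The first-ranked peak (chr1:143214334-143214840) lay between genes, 128 kb upstream of the pseudogene ENSG00000276118. The 301 bp around its summit held 10 copies of GGAAT on either strand, the unit known from human satellites II and III, and the 31 bases at its summit occurred 17 times in hg38. Its -log10 p was 52.8 in MDST8 and 54.97 in LoVo, although its fold enrichment over the local background was only 1.38 in MDST8 and 1.495 in LoVo. The peaks ranked 2, 3 and 5 lay close together on chromosome 17, 96.2 to 100.3 kb upstream of ENSG00000263433, with summit sequences found 558, 6 and 60 times. The peak ranked 10 (chr4:50396427-50396651, nearest to SNX18P25) had a summit sequence found 881 times and 2 CENP-B boxes (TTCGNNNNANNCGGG, on either strand), the motif bound by CENP-B in centromeric alpha satellite.

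DUX4, a homeobox gene encoded in the D4Z4 macrosatellite near the end of chromosome 4, held the peak ranked 4 in an intron (chr4:190178247-190178515), at a fold enrichment of 1.63 in MDST8 and 1.73 in LoVo. The peak ranked 6 (chr10:133688268-133688788) was 4.71 kb downstream of the 5′ end of its pseudogene DUX4L20, at 1.35 and 1.58. The peak ranked 9 (chr22:12692006-12692564, 90.0 kb from FRG1GP) shared runs of 28 and 21 bases with these on the opposite strand. The peak ranked 13 (chr21:8220415-8220738) lay 8.03 kb downstream of the rRNA gene RNA5-8SN2, in an rDNA array. Genes of these families recurred among the nearest genes: rRNA genes were nearest to 18 shared distal peaks and DUX4 genes to 5, while FRG1 copies were nearest to 11 and SNX18 pseudogenes to 7.

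The peak ranked 15 (chr19:7450670-7451075) lay in an intron of ARHGEF18, a RhoA exchange factor, 42.0 kb upstream of TEX45. Its summit sequence occurred once in hg38, yet the 301 bp around it repeated with a period of 34 bp at 92.1% of positions, as the printed bases show. The TTC34 peak of rank 60 repeated with a period of 40 bp at 85.4% of positions, and its 3 printed CATCTG motifs are copies within that repeat. The ELP4 peak of rank 75 (chr11:31780105-31780444) had a summit sequence found once, and held CATCTG and CAAGTG at a fold enrichment of 3.70 in MDST8 and 3.40 in LoVo. In the ZNG1C peak of rank 100 the printed stretch held 3 E-boxes, the last of them CATCTG read on the other strand. Its summit sequence was found 7 times in hg38. Of the 15 first-ranked peaks, 13 had a summit sequence found more than once, 12 lay between genes, 10 held an E-box and 0 held CATCTG. Their fold enrichments were 1.35 to 3.49 in MDST8 and 1.495 to 4.94 in LoVo.

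Most shared distal peaks were weak in both lists. The median fold enrichment was 2.29 in MDST8 and 2.32 in LoVo, the median -log10 p was 2.14 and 2.30, and the median width was 337.5 and 343 bp. The other distal MDST8 peaks had the same median fold enrichment (2.29), a median -log10 p of 2.13 and a median width of 315 bp. Only 651 shared distal peaks, or 4.88% (4.52 to 5.26), had a p of at most 0.001 in both lines, and 28 had a q of at most 0.05 in both. A q of 1 in at least 1 line was listed for 86.6% of them. The values were also coarse, because 4 pairs of fold enrichment and p covered 31.8% of the MDST8 peaks and 37.5% of the LoVo partners. The commonest pair in MDST8, a fold of 2.29 with a -log10 p of 2.13, belonged to 1778 peaks.

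The lines did not rank the shared peaks alike, as a description over 13332 peaks that were each required to pass the same p in both lists. Spearman's rho between the lines was 0.03 for fold enrichment and 0.04 for -log10 p, while Pearson's r was 0.04 and 0.49. Peak width, which the overlap rule itself constrains, had a rho of 0.43 and an r of 0.51. Summits lay a median of 97 bp apart between the lines, and 28.5% were within 50 bp. At the edge of the choice, the lowest overlap was 50% and the highest among distal peaks left out was 49.96%. The 2345 shared distal peaks with an overlap of 50 to 55% and the 2422 left out at 45 to 50% had the same median fold enrichment (2.29) and -log10 p (2.14). The nearest peak taken lay 3007 bp from a 5′ end and the farthest left out 2998 bp. Among MDST8 peaks within 3000 bp of a 5′ end, 2155 of 47361 (4.55%, 4.36 to 4.74) met the same overlap rule.

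**Figure D1:**
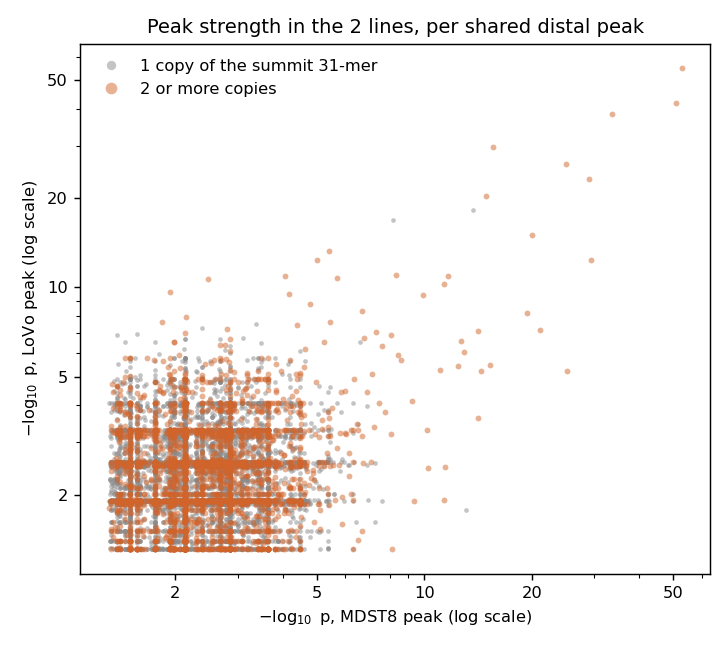
Each point is 1 of the 13332 shared distal peaks, placed by the -log10 p of its MDST8 peak (x axis) and of its LoVo peak (y axis), both on log axes, with peaks whose 31 bases at the summit occur in 2 or more copies drawn in orange over the grey single-copy peaks. Most points form a cloud at low -log10 p with no diagonal and with columns and rows of tied values, and of the 26 points above 6 in both lines 23 are orange.

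The share of distal MDST8 peaks that met the 50% overlap limit with a LoVo peak changed little with MDST8 peak strength until the strongest peaks. It was 4.39% (4.26 to 4.53) at a -log10 p of 1.3 to 2, 4.88% (4.67 to 5.10) at 3 to 4, and 12.4% (9.96 to 15.2; 81 of 654 peaks) at 6 or more. The strongest shared peaks differed from the rest in sequence. The 31 bases at the MDST8 summit occurred more than once in hg38 for 24.7% (23.98 to 25.5) of the shared distal peaks, against 16.4% of windows 500 bp to either side and 21.8% (21.7 to 21.996) of the other distal MDST8 peaks. This share was 23.3% (22.3 to 24.2) among the 8047 peaks whose weaker line had a -log10 p under 2, 34.4% (30.5 to 38.5) at 3 to 4 and 58.2% (45.5 to 70.2; 39 of 67) at 4 to 6. Among the 26 peaks above 6 in both lines it was 88.5% (69.8 to 97.6; 23 of 26). Summits between genes were 33.7 to 36.02% in the 3 weakest bins, 50.7% at 4 to 6 and 84.6% above 6, and summits over 500 kb from any 5′ end rose from 0.93% in the weakest bin to 26.9% in the strongest. Median fold enrichment in MDST8 was 2.18 in the weakest bin, 3.49 at 4 to 6 and 2.15 above 6, so the strongest p did not go with the highest fold. Of the 28 peaks with a q of at most 0.05 in both lines, 25 had a repeated summit sequence, 22 lay between genes and 3 were nearest to a protein-coding gene (DUX4, TEX45 and EMB). The part of repeated sequence in any of these values was not tested.

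**Figure D2:**
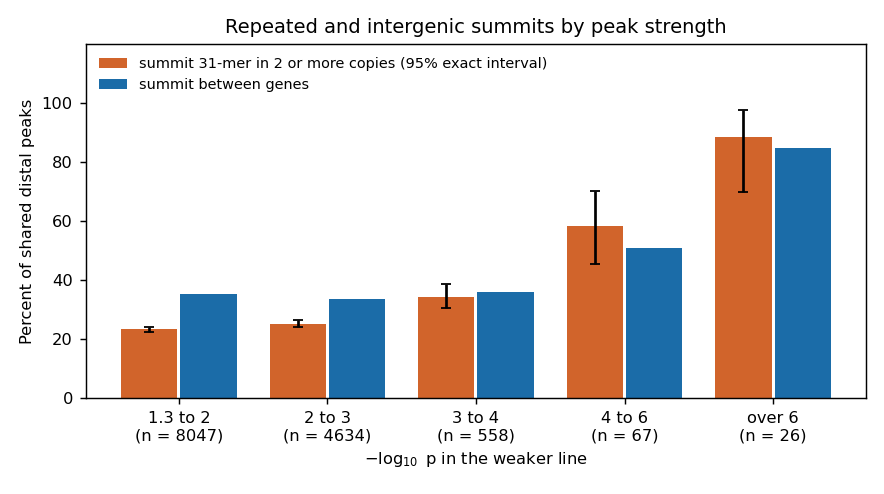
Bars give the percent of shared distal peaks whose 31-base summit sequence occurs in 2 or more copies in hg38 (orange, with 95% exact intervals) and the percent with a summit between genes (blue), in 5 bins of the -log10 p in the weaker line, with the number of peaks under each bin. Both shares are highest above 6, where 23 of 26 summits are repeated and 22 of 26 lie between genes.

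The strongest shared peaks with a summit sequence found once were looked up after their values were seen. The third of these after FRG1GP and TEX45 (rank 24, chr20:61947977-61948444) lay 5.45 kb downstream of the microRNA gene MIR1257, with a fold enrichment of 4.11 in MDST8 and 4.59 in LoVo and a q of 0.0113 and 0.0112. The next (rank 43, chr4:176753144-176753492) lay in an intron of VEGFC, a growth factor of lymphatic vessels, at 3.92 and 3.65. Rank 44 (chr2:207421679-207422076) was 108 kb upstream of CREB1, the cAMP response factor, at 3.51 and 4.18. VEGFC mRNA was 29.7 to 33.95 CPM (counts-per-million, scaled by TMM) in the MDST8 WT libraries, 21.1 to 33.1 CPM in the clones and 0 CPM in all 6 LoVo libraries, so a shared peak in its intron went with expression in 1 line only. CREB1 was 49.2 to 52.4 CPM in MDST8 WT and 38.1 to 44.9 CPM in LoVo, and it was not called in any comparison. VEGFC was not tested in LoVo and was not called in any clone, although in TG3_5 (log2 fold change -0.55) it was called without TG3_5 replicate C or WT replicate C. Of the 15 strongest such peaks, the one at rank 64 (chr2:141977242-141977602) lay in an intron of LRP1B, a receptor of the LDL receptor family, at 3.49 in MDST8 and 3.82 in LoVo. LRP1B was 1.18 to 1.38 CPM in MDST8 WT and was called higher in TG1_1, TG2_2, TG3_2 and TG3_5 (log2 fold change 1.01 ± 0.24 to 1.31 ± 0.23) but not in TG3_6 (0.21 ± 0.26). It was not tested in LoVo.

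Shared distal peaks were found on all 23 chromosomes at 5.12 per Mb of distal sequence. Density was highest on chromosomes 20 (7.18 per Mb), 22 (7.05) and 19 (6.95) and lowest on chromosomes X (0.943) and 16 (3.61). It followed the density of all distal MDST8 peaks (Spearman's rho 0.88 over 23 chromosomes, which share 2 libraries) more closely than that of all distal LoVo peaks (0.64). Chromosome X had 24.2 distal MDST8 peaks per Mb against 88.8 in LoVo, so few MDST8 peaks were there to be shared. As a share of distal MDST8 peaks the range was narrower, from 3.39% (2.99 to 3.83) on chromosome 16 to 5.41% (5.07 to 5.77) on chromosome 8. These 2 are the extremes of 23 chromosomes, and the difference between them was not tested. Neighbouring shared distal peaks were a median of 134313 bp apart, and 38 of 13309 neighbouring pairs lay within 1 kb. At most 16 fell in a window of 1 Mb. Windows that reached it included chr21:8000001-9000000, which holds rDNA sequence, and chr7:77000001-78000000 around PTPN12 and PHTF2.

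**Figure D3:**
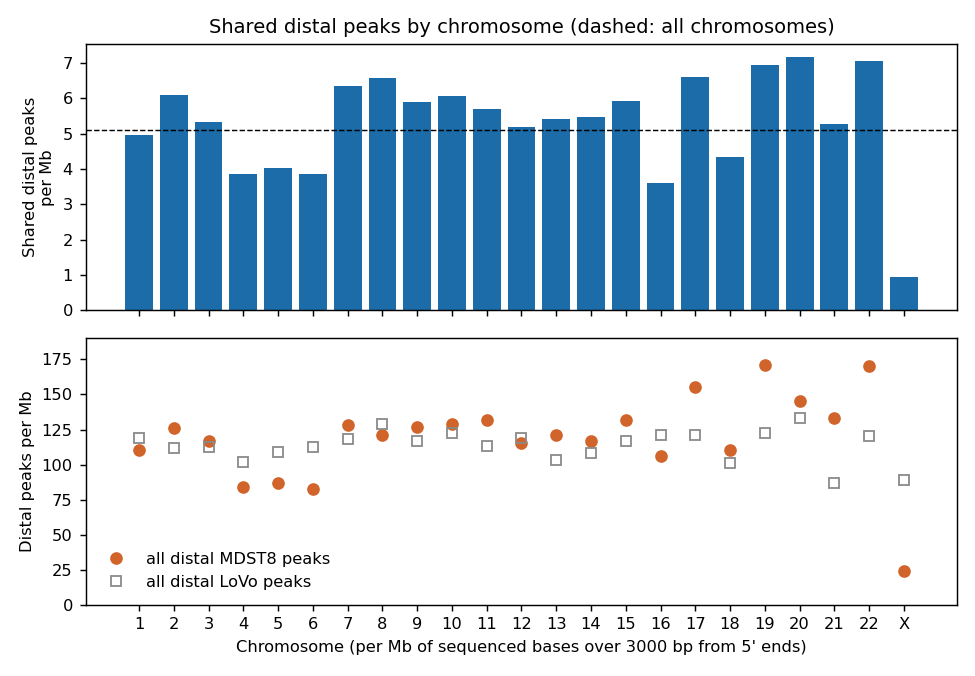
The upper panel gives shared distal peaks per Mb of sequenced bases over 3000 bp from 5′ ends on each chromosome, with a dashed line at 5.12 for all chromosomes together, and the lower panel gives all distal peaks per Mb in MDST8 (filled circles) and LoVo (open squares). Chromosomes 19, 20 and 22 are high and chromosome X is low for the shared peaks and for MDST8, while LoVo is at 88.8 per Mb on X.

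By the gene models, 60.2% of shared distal peaks had their summit in an intron, 4.97% in an exon and 34.8% (34.03 to 35.7) between genes. Together 65.2% (64.3 to 66.0) lay within a gene, against 63.8% (63.7 to 64.0) of the other distal MDST8 peaks, 62.6% of the other distal LoVo peaks and 59.9% of all sequenced bases as far from 5′ ends. Of the 663 exonic summits, 209 were in coding sequence, 235 in a UTR and 219 in transcripts without a coding part. The share depended on which peaks were taken. With a p of at most 0.001 in both lines, 60.5% (56.6 to 64.3) lay within a gene and 39.5% (35.7 to 43.4) between genes, while among peaks with a single-copy summit 66.6% lay within a gene.

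Distances to the nearest 5′ end were nearly those of the other distal MDST8 peaks. The median was 23469.5 bp against 23588 bp. From 3 to 10 kb lay 23.4% of shared distal peaks, from 10 to 50 kb 49.4%, from 50 to 100 kb 15.9%, from 100 to 500 kb 9.97% and beyond 500 kb 1.298%. All sequenced distal bases gave 20.3%, 47.3%, 17.5%, 12.9% and 2.01% for the same bins. The shared distal peaks thus lay nearer to 5′ ends than the sequence available, by a few percentage points, and so did the other distal MDST8 peaks. Beyond 500 kb lay 173 shared distal peaks (1.11 to 1.504%), of which 39 were among the 651 with a p of at most 0.001 in both lines (5.99%, 4.29 to 8.10).

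**Figure D4:**
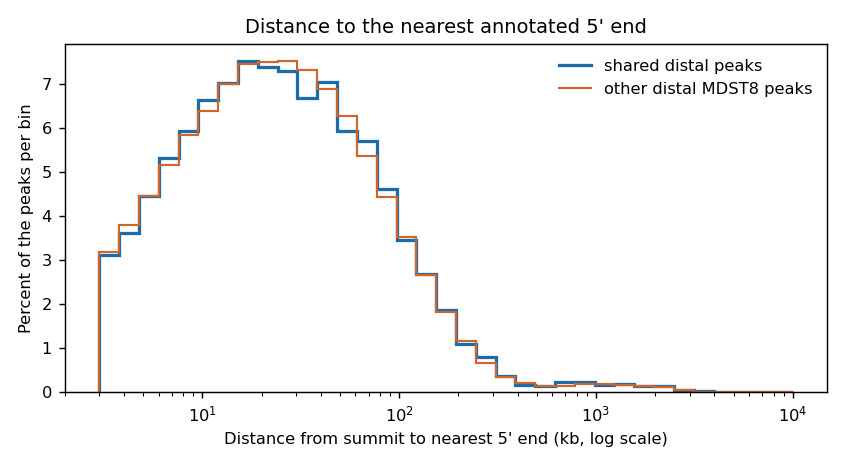
Lines give the percent of peaks in each bin of distance from the summit to the nearest annotated 5′ end, in kb on a log axis, for the 13332 shared distal peaks (blue) and the 278109 other distal MDST8 peaks (orange). The curves lie nearly on each other, with medians of 23469.5 and 23588 bp.

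Base composition and motifs at the summit were close to those of the other distal MDST8 peaks, meaning those that did not meet the overlap limit. Some of these also touch a LoVo peak, since 33695 distal MDST8 peaks overlapped one by at least 1 bp. The summit with 50 bp to either side had a median GC content of 46.5%, as at the other distal MDST8 summits, against 40.6% in windows 500 bp away. CATCTG was in 7.13% (6.69 to 7.58) of these windows, in 6.56% (6.27 to 6.87) of flanks and in 7.55% (7.45 to 7.65) of other distal MDST8 summits. Any CANNTG was in 46.1% (45.2 to 46.9), against 40.4% of flanks and 45.4% (45.2 to 45.6) of the other summits. CACCTG, the E-box bound by SNAI and ZEB repressors, was the variant with the largest difference from the flanks of the 5 counted, at 12.5% (11.9 to 13.1) against 8.23% (7.90 to 8.57), and the other distal MDST8 summits had 11.9%. A pair of CANNTG motifs 5 bases apart, a spacing known for TWIST1, was in 44 windows (0.33%, 0.24 to 0.44), against 0.21% (0.16 to 0.28) of flanks and 0.25% (0.24 to 0.27) of the other summits. The AP-1 motif TGANTCA was in 3.53% (3.22 to 3.85) against 3.09% (2.88 to 3.30) of flanks and 3.20% of the other summits. GATA letters (AGATAA) were less frequent at the summit, at 4.94% against 7.41% of flanks and 4.82% of the other summits. The flanks differ from the summits in GC content, and its part in these shares was not tested. CENP-B boxes were in 0.39% of all shared distal summits and in 2.00% (1.07 to 3.39; 13 of 651) of those with a p of at most 0.001 in both lines. The flanks of those 651 peaks held it as often (2.00%), against 0.33% of all flanks.

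The nearest 5′ ends of the shared distal peaks belonged to 10231 of the 62703 genes in the tables. Of these genes 7989 were nearest to 1 peak and 57 to 5 or more. Protein-coding genes were nearest to 27.1% of the peaks, lncRNA genes to 34.4% and pseudogenes to 25.2%, against 27.5%, 34.9% and 24.2% for the other distal MDST8 peaks. The summit was upstream of the nearest 5′ end in 47.9% and inside the nearest gene in 19.5%. The 4 genes nearest to the most peaks lie, as is known, beside centromeres. LINC01691 was nearest to 17 peaks, from 8278 to 3525330 bp away, ENSG00000215512 to 14, ENSG00000263433 to 12 and ROCK1, a kinase of the actomyosin cytoskeleton, to 11, from 93519 to 2855943 bp away. The 6 genes that followed, nearest to 7 to 9 peaks each and with 8 genes tied at 7 taken in order of symbol, were 4 pseudogenes (ENSG00000275046, ENSG00000214883, ENSG00000236978 and KRT8P17), the small RNA gene ENSG00000276685 and a 5.8S rRNA gene annotated as 5_8S_rRNA. ROCK1 was the only one of these 10 genes that passed the expression filter. It was 97.1 to 102.5 CPM in MDST8 WT and 88.6 to 107 CPM in the clones, and it was not called in any comparison.

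Gene bodies with the most shared distal peaks were mostly long genes. CNTNAP2 (2305 kb), a neurexin-like adhesion gene, held 16, CSMD1 held 13 and AUTS2 held 11. Per 100 kb this was 0.694 in CNTNAP2 and 13.5 in ENSG00000280441, a lncRNA of 74.15 kb in the rDNA sequence of chromosome 21 that held 10. TWIST1 itself had 1 shared distal peak within 100 kb of its 5′ end, 98558 bp away, and 6 within 500 kb. SPON2, the secreted matrix protein the study followed, had 1 within 100 kb, 32355 bp away, and 4 within 500 kb.

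Of 10 EMT factors (TWIST1, TWIST2, SNAI1 to SNAI3, ZEB1, ZEB2, FOXC2, PRRX1 and GSC), 0 were the nearest gene of a shared distal peak. Of 9 bHLH partners and inhibitors, 3 were: TCF12, the E protein, ID4, an inhibitor, and HAND1, a bHLH factor of heart and gut mesoderm. Of 16 AP-1 and TEAD factors, BATF3 was. Of 15 WNT targets and feedback genes, 5 were nearest to 10 peaks in all: ASCL2, a stem-cell factor of the crypt, and TCF7, a WNT effector, to 3 each, CCND1, cyclin D1, to 2, and AXIN2, a feedback inhibitor, and APCDD1 to 1 each. Of 21 intestinal identity factors, HNF4G, FOXA1, KLF5 and ISX were nearest to 7. Of 37 matrix and adhesion genes, 9 were nearest to 10, among them FN1, TNC, ITGAV, ITGB5, VIM and CCN2. Of the 27 targets that the study chose on these samples, TNFRSF21, F3 and TNS1 were. For comparison, 16.3% of all genes in the tables were nearest to a shared distal peak, and these lists are short.

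Most peaks at these genes had fold enrichments near the median of 2.29. The ASCL2 peak 4.98 kb upstream (chr11:2275431-2275820) had a fold enrichment of 2.59 in MDST8 and 2.54 in LoVo, and the CCND1 peak 4.49 kb upstream (chr11:69636435-69637016) had 2.39 and 2.94. The VIM peak (chr10:17224692-17224978, in an intron of VIM-AS1, 3.44 kb upstream of the VIM 5′ end) had 1.88 and 2.48. The HAND1 peak 13.4 kb downstream (chr5:154464675-154465508) had 3.59 and 2.43. The TNC peak (chr9:115043210-115043789, in an intron of TNC and of DELEC1) had 2.39 in MDST8 and 4.02 in LoVo. The ISX peak had a summit sequence found 8348 times in hg38, that of HNF4G at 23.8 kb 29 times and the other HNF4G, KLF5 and WNT-list peaks once.

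Genes nearest to a shared distal peak were tested for expression with edgeR's quasi-likelihood test over all genes of the line, and called at an absolute log2 fold change over 0.58 and an adjusted p under 0.05. Of the 10231 genes, 2054 passed the expression filter in MDST8 (20.1%; 21.9% of all genes did) and 2094 in LoVo (20.5%; 22.8%). The filter uses the mean over all libraries of a line, so a gene can pass through a group where it is high, and these counts describe the genes that passed. In bulk RNA fewer cells of a type and less RNA per cell cannot be told apart. The clones were all compared with the same 3 WT libraries. In TG1_1, 14.4% of the 2054 genes were called higher and 9.35% lower, while of all 13706 genes tested 12% were higher and 7.49% lower, 19.5% together. In TG2_2, 9.10% were higher and 8.23% lower, against 8.05% and 6.64% of all genes, 14.7% together. In TG3_2 the shares were 13.4% and 6.86%, against 10.9% and 6.09%, 17% together. In TG3_5 they were 12.2% and 7.84%, against 11.2% and 7.25%, 18.5% together. In TG3_6 they were 17.4% and 13.05%, against 15.3% and 11.7%, 27% together. With limma on log2(count + 1) the TG3_6 shares were 22.1% and 9.20%, and those of all genes 19.6% and 8.06%. In LoVo libraries labelled TWIST1 shRNA, 27.1% of 2094 genes were higher and 28.4% lower than in those labelled shRNA control, against 26.6% and 26.1% of all 14270 genes, 52.7% together. Of the 3 libraries labelled TWIST1 shRNA, replicate 1 stood apart from the others (chi-square per gene 28.8 and 44.5, against 5.40 between replicates 2 and 3). Without it 27.1% were called higher and 27.9% lower. Median log2 fold changes of the nearest genes lay between -0.03 and 0.02 in the 6 comparisons.

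These shares lay above those of all genes by a few percentage points at most, and the difference was not tested. It was kept only in part by the stricter peaks. Among the 118 tested genes nearest to peaks with a p of at most 0.001 in both lines, 11.9% were higher in TG1_1, 6.78% in TG2_2 and 11.02% in TG3_5, and 4.24% were lower in TG3_2 and 5.93% in TG3_5, each below the share of all genes. The other shares lay above it. In the clones these were 8.47% lower in TG1_1 and in TG2_2, 11.02% higher in TG3_2, and 16.1% higher and 13.6% lower in TG3_6. Of the LoVo genes nearest to such peaks, 28.97% were higher and 27.1% lower. Genes nearest only to other distal MDST8 peaks had shares close to all genes, for example 11.96% higher and 7.49% lower in TG1_1. The sets also differed in the number of peaks per gene. Genes nearest to a shared distal peak had a median of 8 distal MDST8 peaks, and those nearest only to other distal peaks had 3. Among genes with 1 to 5 distal peaks, 19.6% of the former and 18.5% of the latter were called in TG1_1, and among genes with 6 to 15 peaks 23.5% and 21.7%. In TG3_5 the same bins gave 17.97% and 17.7%, and 18.1% and 20.6%. In LoVo they gave 52.4% and 52.4%, and 55.03% and 54.3%. Genes whose closest shared distal peak lay over 50 kb away were called more often, not less, than those with 1 within 10 kb: 30.4% of 289 genes against 22.4% of 629 in TG1_1, and 36.7% against 31.5% in TG3_6. The differences between these sets were not tested.

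**Figure D5:**
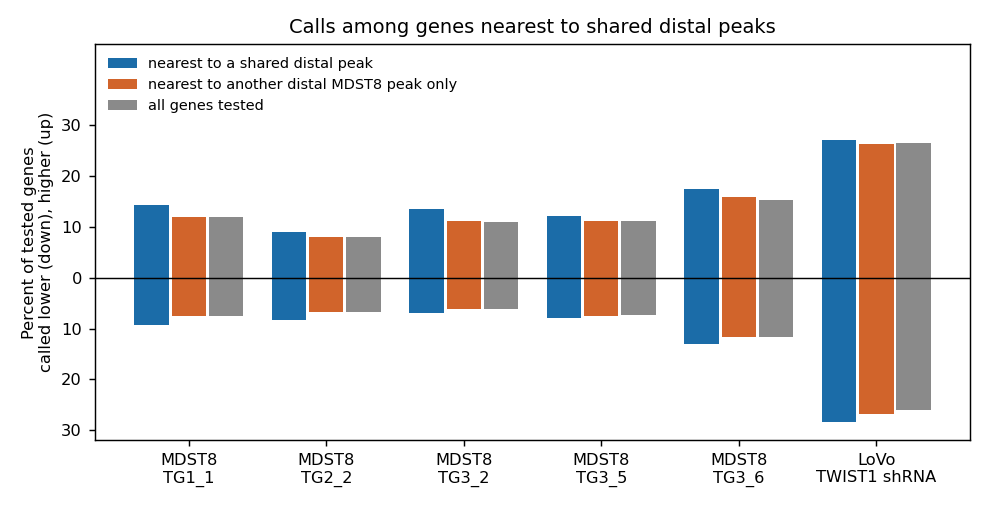
Bars give the percent of tested genes called higher (upward) and lower (downward) in each MDST8 clone against WT and in LoVo TWIST1 shRNA against shRNA control, as labelled, for genes nearest to a shared distal peak (blue), genes nearest only to another distal MDST8 peak (orange) and all genes tested (grey). The blue bars exceed the others by at most a few percentage points, and the LoVo bars are the longest in all 3 sets.

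In all 5 clones 72 of the 2054 nearest genes were called higher (3.51%; 3.17% of all genes tested) and 30 lower (1.46%; 1.06%). Since TG3_2, TG3_5 and TG3_6 share a clone name, the 5 clones may not be 5 independent knockouts. The named genes below are the 10 of each direction with the largest smallest change over the clones, a choice that used these contrasts. COL22A1 is a collagen of tissue junctions. It was 1.604, 1.63 and 1.17 CPM in the WT libraries and 3.23 to 47.5 CPM (median 24.8) in the 15 clone libraries. Its log2 fold changes ran from 1.499 ± 0.19 (SE) in TG3_5 to 4.96 ± 0.12 in TG3_6. Its gene body held both of its shared distal peaks, 6.84 and 160.3 kb downstream of the 5′ end. TNFRSF11B, the decoy receptor osteoprotegerin, was 10.2, 10.95 and 9.08 CPM in WT and 27.5 to 43.7 CPM (median 37.4) in the clones, at log2 fold changes of 1.51 ± 0.08 to 2.11 ± 0.08. It was nearest to 3 shared distal peaks, of which that 92.9 kb downstream had a fold enrichment of 3.05 in MDST8 and 3.83 in LoVo.

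PLCB1, a phospholipase C of G-protein signalling, was 25.2, 23.1 and 21.7 CPM in WT and 52.7 to 118 CPM in the clones, with a shared distal peak 26.5 kb upstream (chr20:8050695-8050936). In LoVo it was 0.667, 0.495 and 0.449 CPM in libraries labelled shRNA control and 21.8, 26.3 and 24.9 CPM in those labelled TWIST1 shRNA. SERPINI1, the protease inhibitor neuroserpin, was 1.28, 0.764 and 0.510 CPM in WT and 3.04 to 13.9 CPM in the clones, and in LoVo 0.364, 0.396 and 0.169 against 5.18, 4.49 and 5.50 CPM. PLCB1 and SERPINI1 were chosen for their change in the MDST8 clones, and in LoVo 52.7% of all genes tested were called. RIPOR3, whose shared distal peak lay 3.95 kb upstream (chr20:50695426-50695730), was 2.09 to 3.06 CPM in WT and 7.91 to 26.5 CPM in the clones. MDGA1, a membrane protein of synapses, had 3 shared distal peaks, and it was 38.2 to 41.3 CPM in WT and 95 to 154 CPM in the clones. In LoVo it went the other way, from 8.93 to 10.0 CPM in libraries labelled shRNA control to 2.51 to 2.72 CPM in those labelled TWIST1 shRNA. LINC01854, PLEKHG1, CACNA2D1 (a calcium channel subunit) and GOLGA7B completed the 10 higher genes, at log2 fold changes of 1.25 to 4.44 over the clones. LINC01854 had 0 counts in all LoVo libraries.

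FBLN5 is an elastic fibre protein. It was 9.04, 8.97 and 8.92 CPM in WT and 0 to 1.06 CPM (median 0.537) in the clone libraries, at log2 fold changes from -5.52 ± 0.32 in TG3_6 to -3.34 ± 0.25 in TG3_5. Its shared distal peak lay in its own intron, 6.72 kb downstream of the 5′ end (chr14:91941149-91941372), at a fold enrichment of 1.83 in MDST8 and 2.99 in LoVo. In LoVo FBLN5 was 11.6, 12.1 and 12.02 CPM in libraries labelled shRNA control and 13.7, 12.6 and 13.7 CPM in those labelled TWIST1 shRNA, and it was not called (log2 fold change 0.16 ± 0.11). BMP2, a ligand of the TGF-β family, was 73.3, 71.4 and 65.3 CPM in WT and 17.6 to 34.5 CPM (median 22.9) in the clones. It was 29.6, 30.9 and 30.7 CPM in LoVo libraries labelled shRNA control and 1.203, 1.28 and 1.78 CPM in those labelled TWIST1 shRNA. BMP2 had 2 shared distal peaks, in an exon 11.1 kb downstream of the 5′ end (chr20:6778674-6779010) and 22.7 kb downstream (chr20:6790305-6790638). BMP2 too was chosen for its change in the MDST8 clones.

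MME, the membrane protease neprilysin (CD10), was 189, 180 and 198 CPM in WT and 72.0 to 104 CPM (median 94.4) in the clones. Of its 2 shared distal peaks, the one in its intron had a summit sequence found 11950 times in hg38. MOXD1, a monooxygenase-like protein, was 33.6 to 34.9 CPM in WT and 4.55 to 14.8 CPM in the clones. Its intronic shared distal peak 7.20 kb downstream (chr6:132393913-132394335) had a fold enrichment of 2.29 in MDST8 and 3.40 in LoVo. CBLN2, a secreted synaptic organizer, was 9.13 to 10.2 CPM in WT and 0.318 to 4.18 CPM in the clones. SLC4A4, a sodium bicarbonate cotransporter, CENPV, GABPB2 and the lncRNA genes ENSG00000287867 and ENSG00000286502 completed the 10. The ENSG00000286502 libraries were at 1.58 to 2.19 CPM in WT and 0.530 to 1.57 CPM in the clones, and its call was lost in TG3_5 and TG3_6 when 1 library of that clone was left out. The CENPV peak lay in an intron of PIGL, and reads of overlapping genes could not be assigned by strand, since no strand option was used in counting.

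The list genes moved as follows. Of 8 matrix and adhesion genes that were nearest to a shared distal peak and tested in MDST8, 3 were higher and 1 lower in TG1_1, TG3_2, TG3_5 and TG3_6, and 4 were higher in TG2_2. The whole list of 30 tested genes had 6 to 12 higher and 1 to 6 lower per clone, with a median log2 fold change of 0.19 to 0.44 against -0.01 to 0.00 for all genes. Of all genes tested, 8.05 to 15.3% were higher and 6.09 to 11.7% lower per clone, and the difference was not tested. TNC, tenascin C, was 292.5, 321 and 322 CPM in WT and 506 to 941 CPM (median 560) in the clones, and it was called higher in all 5 (log2 fold change 0.75 ± 0.05 to 1.54 ± 0.05). In LoVo it was called lower (-0.82), a call lost without TWIST1 shRNA replicate 2 or 3 or shRNA control replicate B or C. CCN2, a matricellular protein and YAP target, was 322, 319 and 334 CPM in WT, 82.1 to 143 CPM in 4 clones and 298, 292 and 295 CPM in TG2_2, where it was not called. ITGAV and ITGB5, subunits of 1 integrin, were called higher in 4 clones each, and ITGB5 lost its call in TG3_5 without TG3_5 replicate B or WT replicate C. FN1, fibronectin, was 5082 to 5782 CPM in WT and was called higher in TG2_2, TG3_2 and TG3_5 (log2 fold change 0.59 ± 0.05, 0.76 ± 0.05 and 1.01 ± 0.05), of which the call in TG2_2 was lost without TG2_2 replicate A or WT replicate A. In LoVo FN1 was called lower (-0.93 ± 0.08). VIM was 3385 to 3573 CPM in WT and was not called in any clone, while in LoVo it was 107, 111 and 107 CPM in libraries labelled shRNA control and 9.16, 12.6 and 13.3 CPM in those labelled TWIST1 shRNA. In LoVo 2 of 9 matrix genes near shared distal peaks were higher and 4 lower, and of the whole list 13 of 33 were higher and 14 lower, where 26.6% of all genes were higher and 26.1% lower.

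Of the intestinal factors, 13 of 20 tested were lower and 2 higher in LoVo libraries labelled TWIST1 shRNA, and all 4 nearest to a shared distal peak were lower, where 26.1% of all genes tested were lower and 26.6% higher. HNF4G, a nuclear receptor of enterocytes, was 58.4, 61.1 and 60.1 CPM in libraries labelled shRNA control and 10.1, 10.9 and 10.6 CPM in those labelled TWIST1 shRNA. ISX was 16.4 to 19.5 CPM against 0 to 0.389 CPM and FOXA1 53.8 to 55.6 CPM against 3.91 to 5.23 CPM. In MDST8 only KLF5 and FOXA1 of these 4 passed the filter. KLF5 was 11.8 to 15.04 CPM in WT and was called lower in TG3_2 and TG3_6, a call lost in TG3_2 without WT replicate C. FOXA1 was called higher in TG3_6 (log2 fold change 0.68 ± 0.27), a call lost without TG3_6 replicate A or C or WT replicate B or C. Of the WNT list, 4 genes near shared distal peaks were tested in LoVo, of which TCF7 (log2 fold change 1.26 ± 0.07) and CCND1 (1.497 ± 0.06) were called higher and AXIN2 and ASCL2 (-2.02 ± 0.28) lower. The whole list had 5 of 14 higher and 6 lower. TCF7 was also called higher in TG3_6 (0.73 ± 0.04), and CCND1 was not called in any clone. AXIN2 was 191, 183 and 185 CPM in LoVo libraries labelled shRNA control and 15.9, 15.2 and 14.8 CPM in those labelled TWIST1 shRNA. In MDST8 it was 47.8 to 48.2 CPM in WT and 47.4 to 85.9 CPM in the clones, higher in TG3_2 and TG3_6, the former lost without TG3_2 replicate B. HAND1 was 46.4, 45.9 and 42.5 CPM against 0.419, 0.642 and 1.11 CPM in LoVo and had 0 counts in MDST8. TCF12 was 163 to 169 CPM in MDST8 WT and was not called in any clone. It was lower in LoVo (log2 fold change -0.59 ± 0.06), a call lost when TWIST1 shRNA replicate 1 or 3 or shRNA control replicate B was left out. BATF3 was 10.3 to 11.4 CPM in MDST8 WT and 6.56 to 9.80 CPM in the clones, and was not called. Of the study's targets, TNFRSF21 was higher in all 5 clones (138.5 to 159 CPM in WT, 211 to 516 CPM in the clones), although in TG3_5 not without TG3_5 replicate B or WT replicate C, and F3, tissue factor, lower in all 5 (6.10 to 7.75 against 2.00 to 4.29 CPM). In LoVo as labelled TNFRSF21 was lower (-1.50) and F3 higher (1.51). TNS1, a focal adhesion protein, was 8.31 to 11.1 CPM in WT. It was called lower in TG1_1, TG2_2, TG3_2 and TG3_5 (log2 fold change -0.63 ± 0.16 in TG1_1 to -4.98 ± 0.27 in TG2_2), in TG1_1 not without TG1_1 replicate B or WT replicate B. It was 0.41 ± 0.14 in TG3_6, not called, and was called higher in LoVo (0.91 ± 0.13). SPON2, nearest to no shared distal peak, was 6.26, 8.81 and 7.29 CPM in WT and 0.195 to 5.15 CPM (median 1.99) in the clones, and was called lower in all 5 (log2 fold change -4.17 to -0.72, in TG3_6 not without WT replicate B). In LoVo it was called higher (0.78 ± 0.34), not without TWIST1 shRNA replicate 3 or shRNA control replicate A or B. These genes were picked by the study on the same libraries, so their directions are not independent evidence.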

How the data were processed

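TWIST1 ChIP-seq (1 library per line; antibody ab50887) and polyA RNA-seq (24 of the 28 samples) were measured; the 2 input samples were not analysed here. According to the study's methods and the submitters' processing notes, reads were trimmed with Trim Galore 0.6.6 and sorted with SAMtools 1.6, and ChIP reads were aligned to hg38 with Bowtie2 2.4.5. The authors called peaks with MACS2 2.2.7.1 and kept those with p below 0.05, and whether the input served as control is not given in the sources used here. The deposited peak lists hold, per peak, a score (10 times −log10 p, cut to a whole number), the fold enrichment over the local background (a ratio), −log10 p and −log10 q, and the summit's distance from the peak's start. Since so lenient a limit was used, single peaks are weak evidence of binding. RNA reads were aligned with HISAT2 2.1.0, and the deposited counts are raw counts per GENCODE v43 gene, made by the authors with featureCounts 2.0.0 without a strand option, which leaves overlapping and antisense genes unresolved.

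The members, gene lists and motifs were chosen with earlier results of these data known. Sequences were read from hg38 with pysam 0.24.0, and the copies of the 31 bases at each summit were counted on both strands; flanks are windows 500 bp to either side. Genes with a geometric mean of (RPM + 1), minus 1, of at least 1 were tested with edgeR 4.0.16 (TMM, quasi-likelihood, Benjamini-Hochberg adjustment) in R 4.3.3, with the 18 MDST8 libraries in one fit and the 6 LoVo libraries in another. CPM values use TMM library sizes. SE is that of the log2 fold change. Scripts were tested on simulated data. Alternatives were RLE factors, DESeq2 1.42.0, limma 3.58.1 on log2(count + 1) (the study's choice), no filter, a replicate block, leaving out each library, other overlaps, p limits, distances, windows and gene sets. The labels do not say whether the libraries of a group came from separate cultures, so p-values measure the spread between these libraries, which may be technical. Named peaks were the 15 first by rank and the 8 first with CATCTG or paired E-boxes. Named genes were the 10 nearest to the most peaks, the genes nearest to named peaks, the 10 of each direction called in all 5 clones with the largest smallest change, and list genes nearest to a peak. A few genes and sequences are not reported here.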

Additional observations from a re-analysis of the deposited data

Results flagged for a closer look

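Chromosome Y lay outside the choice of peaks, yet by the same overlap and distance limits it held 8 shared distal peaks. The lists had 75 MDST8 and 169 LoVo peaks there, and 53 of the former were distal.

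The 5 named genes below were each called the same way in all 5 MDST8 clones and the opposite way in LoVo as labelled. In a joint edgeR fit with an interaction term, their LoVo change differed from the mean change of the clones. The same libraries gave those calls, so the adjusted p-values are not separate evidence. Named genes with opposite signs but without a call in all 5 clones, such as TNS1, are not among them. MDGA1 had a mean log2 fold change of 1.49 over the clones and -1.84 in LoVo, a difference of -3.37 ± 0.11 (SE; adjusted p = 7.74e-23). TNC had 0.98 and -0.82 (difference -1.84 ± 0.30, adjusted p = 1.94e-06). TNFRSF21 had 1.01 and -1.50 (difference -2.56 ± 0.07, adjusted p = 9.03e-26). F3 went the other way, with -1.03 over the clones and 1.51 in LoVo (difference 2.51 ± 0.11, adjusted p = 7.92e-20). SPON2 had -2.34 and 0.78 (difference 3.09 ± 0.34, adjusted p = 1.14e-09). The lines also differ in the way TWIST1 was targeted, and TWIST1 counts in the LoVo libraries were opposite to their labels, so these cannot be told apart from a difference between lines. With the LoVo labels exchanged each LoVo change would take the other sign, and all 5 genes would go the same way as in the clones. That follows from their opposite signs as labelled. Whether the LoVo labels were exchanged was not tested. Named genes with the same direction in both lines as labelled would then turn opposite. Among them were PLCB1 (log2 fold change 5.49 in LoVo), SERPINI1 (3.99) and BMP2 (-4.41).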

How the results depend on the processing

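The number of shared distal peaks depended most on the overlap asked for and on the p limit: it was 33695 with any overlap, 25080 at 25%, 3760 at 75%, 651 at p of at most 0.001 and 28 at q of at most 0.05 in both lines. The share within genes was 63.7% at 75% overlap, 60.5% at the p limit of 0.001 and 66.6% for single-copy summits, the last chosen after seeing the data. Counting protein-coding 5′ ends only, the median distance was 72279.5 bp. In windows of 100 bp to either side CATCTG was in 13.9%, AP-1 in 6.79% and paired E-boxes in 0.585%, by construction of the wider window. At p of at most 0.001 AP-1 was in 3.07% and paired E-boxes in 0.461%, and for single-copy summits CATCTG was in 8.10%. Without the filter on low counts more genes were tested, and the nearest genes called higher and lower were 6.43% and 4.72% in TG1_1 (all genes 5.74% and 3.92%), 3.84% and 4.05% in TG2_2 (3.78% and 3.46%), 5.86% and 3.50% in TG3_2 (5.23% and 3.17%), 5.06% and 3.91% in TG3_5 (5.24% and 3.70%), 7.75% and 6.59% in TG3_6 (7.25% and 6.19%), and 17.3% and 17.2% in LoVo (16.98% and 15.7%). The order against all genes turned in 8 cases, to below all genes: in TG3_5 higher without the filter, for genes nearest to peaks with p of at most 0.001 in TG1_1 higher (11.86% against 11.99%), TG2_2 higher (6.78% against 8.05%), TG3_2 lower (4.24% against 6.09%), TG3_5 higher (11.02% against 11.24%) and TG3_5 lower (5.93% against 7.25%), for genes nearest to at least 3 peaks in TG2_2 lower (5.81% against 6.64%), and in LoVo higher with the nearest gene sought among tested genes (26.57% against 26.59%). The cause of these shifts was not tested. Leaving out 1 library at a time, the shares higher and lower were 13.6 to 14.7% and 8.76 to 9.20% in TG1_1, 8.76 to 9.69% and 7.84 to 8.03% in TG2_2, 13.1 to 13.97% and 6.18 to 7.01% in TG3_2, 11.7 to 12.3% and 7.45 to 7.89% in TG3_5, 17.1 to 17.9% and 12.4 to 13.3% in TG3_6, and 26.3 to 27.6% and 27.3 to 28.4% in LoVo. The letters A, B and C of the MDST8 libraries did not pair them: deviations from group means correlated at -0.13 to 0.11 for the same letter, with 1 of 45 pairs over 0.1. With the letter as a replicate block the shares were 14.3% and 9.35%, 9.10% and 8.18%, 13.4% and 6.86%, 12.03% and 7.84%, and 17.4% and 13.1% in the order of the clones above. The other 192 of 220 recomputed values stayed within 1.5 times the reported value (for shares within genes and motif shares, within its counting interval). Of 2995 recomputed values for named genes, 43 lost and 20 gained a call.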
